A study of Mus musculus with 16 samples.

Results

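Spleen leukaemia cells from mice with fatal secondary disease on doxycycline were compared with spleen leukaemia cells taken after 7 days of doxycycline. The comparison was defined by the sample titles and used 7 of the 16 libraries of the study, 4 of secondary disease and 3 of spleen doxycycline. All cells were mouse leukaemia cells that expressed the fusion CBFB::MYH11 together with GFP, were grown in congenic recipient mice and were sorted for GFP before RNA sequencing. Secondary disease (4 libraries) and spleen doxycycline (3 libraries) are labelled as cells transduced with shRNA, which the design text describes as inducible by doxycycline and directed against MYH11. Both groups drank doxycycline at 3 mg/ml in 5% sucrose, secondary disease until signs of fatal illness and spleen doxycycline for 7 days. Spleen control (3 libraries) drank 5% sucrose for 7 days. Its labels name only fusion-expressing primary cells, whereas the study design describes the shRNA construct for all transplanted cells. Bone marrow doxycycline and bone marrow control at 7 days (3 libraries each) were used only to define genes that changed early in another tissue.

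Several features limit these groups as a model. Secondary disease came from a separate cohort, so cohort, duration of treatment and stage of disease cannot be told apart. The sources used here do not say how long each of these mice was treated. Doxycycline without the shRNA was not among the groups, so the drug and the knockdown cannot be told apart. The titles only number the samples and do not tie them to animals, and p-values then measure the spread between these samples. The shRNA target could not be checked. Myh11, whose 3' part is in the fusion, had at most 0.352 CPM in any library, did not pass the filter on low counts and does not separate fusion from normal transcripts.

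Core binding factor is a transcription factor made of a RUNX protein, which binds DNA, and CBFB, which stabilises that binding. The inversion of chromosome 16 in human acute myeloid leukaemia joins CBFB to the smooth muscle myosin gene MYH11, and the fusion protein disturbs RUNX1 function and blocks blood cell differentiation. Knockdown of such a fusion tests which genes depend on it. Disease that returns while the knockdown persists would test which of those dependences are still seen. Whether it persisted in secondary disease was not tested here.

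The libraries differed in quality and in likeness to each other. Total expected counts lay between 12259707 and 25161219 in secondary disease, with the lowest in secondary disease 4, between 23122657 and 31201883 in spleen doxycycline and between 21838936 and 39419370 in spleen control. Pearson correlations of log2 CPM (counts scaled to library size, as described for the processing) were 0.983 to 0.989 among secondary disease 1 to 3, but 0.822 to 0.825 between these and secondary disease 4. Among the spleen doxycycline libraries they were 0.904 to 0.942, and among the controls 0.986 to 0.990. Haemoglobin genes held 0.385 to 0.649% of counts in secondary disease, against 0.527, 7.15 and 3.73% in doxycycline 1 to 3 and 0.282 to 0.468% in controls. Mitochondrial genes held 5.3, 3.39, 3.16 and 7.78% in secondary disease 1 to 4, against 2.28, 2.14 and 5.2% in doxycycline 1 to 3.

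Markers of other cell types also differed between single libraries. The 20 neural genes summed to 7.70, 6.96, 7.26 and 2745 CPM in secondary disease 1 to 4, against 12.2, 6.90 and 12.6 CPM in doxycycline 1 to 3 and 6.04 to 6.73 CPM in controls. In secondary disease 4, 0 of these 20 genes were at 0, against 7 to 11 in secondary disease 1 to 3. Macrophage and dendritic cell markers summed to 109, 37.0, 40.9 and 204 CPM in secondary disease and to 29.6, 133 and 104 CPM in doxycycline 1 to 3. T cell and NK cell markers summed to 8.20, 7.82, 7.03 and 197 CPM in secondary disease and to 10.2, 17.6 and 11.5 CPM in doxycycline. B cell and plasma cell markers summed to 44.0 to 125 CPM in secondary disease and to 64.1 to 195 CPM in doxycycline. The part of these other cell types in the results was not tested, and results are therefore given with and without secondary disease 4.

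No gene passed the test between secondary disease and spleen doxycycline in a model of these 7 libraries. The quasi-likelihood test of edgeR called 0 of 13104 genes (0%) at an adjusted p under 0.05, while 717 genes (5.47%) had an unadjusted p under 0.05, and the smallest adjusted p was 0.859. Leaving out secondary disease 4, it called 0 of 12857 genes (0%), with 1223 (9.51%) at an unadjusted p under 0.05 and a smallest adjusted p of 0.378. Some other models gave calls, and the cause was not tested. A model of the 10 spleen libraries called 0. A model of all 16 libraries called 134 of 14435 genes (0.928%), of which 32 were higher and 102 lower in secondary disease. The same model without secondary disease 4 called 711 of 14263 genes (4.98%), and 133 of the 134 were among them. The Wald test of DESeq2 on the 7 libraries called 104 of 12594 genes (0.826%), 79 of them shared with the 16-library model. With limma-voom the count was 0, and with library quality weights it was 1.

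The values were therefore also described by whether the groups overlapped. Every secondary disease library was above every doxycycline library for 445 of 14435 genes (3.08%) and below for 600 genes (4.16%). With secondary disease 1 to 3 only, these counts were 1319 (9.14%) and 1429 (9.90%). The median log2 fold change of all genes was 0.03. In such sorted bulk samples, fewer cells of a type and less RNA per cell cannot be told apart.

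Genes of red cell formation were high in doxycycline 2 and 3 and near control in doxycycline 1 and in the fatal libraries. The median log2 difference of the red cell list from the control mean was 0.27, 0.28, 0.30 and -0.52 in secondary disease 1 to 4, against 0.03, 3.38 and 2.29 in doxycycline 1 to 3. Of 24 globin and red cell genes tested, 0 passed. At an unadjusted p under 0.05, 16 were lower, beside 5.47% of all genes in either direction. The median log2 fold change of the 24 was -2.82 (-2.57 without secondary disease 4 and -1.59 without doxycycline 2). The 16-library model called 8 of the red cell genes lower and 0 higher, beside 0.928% of all genes called. Every secondary disease library lay below every doxycycline library for 7 of 26 red cell genes with CPM, beside 4.16% of all genes. Of 19 haem synthesis and iron genes, 0 passed. At an unadjusted p under 0.05, 12 were lower, beside the same 5.47% of all genes. The median of the 19 was -1.16 (-1.16 without secondary disease 4 and -0.60 without doxycycline 2).

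Hba-a2, an alpha globin gene on chromosome 11, had 1360, 2260, 2259 and 1240 CPM in secondary disease 1 to 4, against 1953, 28620 and 14570 CPM in doxycycline 1 to 3 and 894, 1632 and 1404 CPM in controls 1 to 3. Doxycycline 2 and 3 were far above all other spleen libraries, while doxycycline 1 lay within the range of secondary disease. The log2 fold change was -3.04 ± 0.75 (SE, adjusted p = 0.887), and the 2 mouse alpha globin copies are so alike that the estimated counts may split their reads. Hbb-bs, a beta globin gene, had 812, 1424, 1701 and 609 CPM in secondary disease, against 583, 27150 and 12220 CPM in doxycycline and 361, 789 and 662 CPM in controls. Here doxycycline 1 was the lowest of the 7 libraries compared.

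Rhd, which encodes the red cell Rhesus membrane protein, had 18.3, 13.2, 13.6 and 9.54 CPM in secondary disease, against 24.5, 350 and 79.6 CPM in doxycycline and 11.6, 17.1 and 14.7 CPM in controls. The groups did not overlap, but doxycycline 1 was closer to secondary disease than to doxycycline 2. Its log2 fold change was -3.43 ± 0.79 (adjusted p = 0.859), and it was called in the 16-library model (adjusted p = 0.0265). Alas2, the erythroid enzyme that starts haem synthesis, had 39.6, 59.5, 73.8 and 19.4 CPM in secondary disease, against 56.5, 1056 and 451 CPM in doxycycline and 28.8, 53.3 and 46.1 CPM in controls. Its groups overlapped through doxycycline 1, with a log2 fold change of -3.40 ± 0.86 (adjusted p = 0.887). Tspan33, a tetraspanin of developing red cells, had 14.2, 20.6, 21.7 and 19.3 CPM in secondary disease, against 59.4, 416 and 73.2 CPM in doxycycline and 34.8, 47.3 and 45.5 CPM in controls. Secondary disease lay below both other groups, and Tspan33 fell relative to control (log2 fold change -1.16, adjusted p = 0.0228).

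The promoters of Alas2 and Rhd are shown because both genes followed the same uneven pattern over libraries. They are 300 bases from RefSeq (mouse build GRCm38.p6), 250 before to 50 after the start site, given 5′ to 3′ on the strand of the gene. Alas2 is at chrX:150547167-150547466 and Rhd at chr4:134864286-134864585, both on the plus strand. Capitals mark the letters AGATAA, to which GATA factors can bind, or their reverse complement TTATCT.
Alas2: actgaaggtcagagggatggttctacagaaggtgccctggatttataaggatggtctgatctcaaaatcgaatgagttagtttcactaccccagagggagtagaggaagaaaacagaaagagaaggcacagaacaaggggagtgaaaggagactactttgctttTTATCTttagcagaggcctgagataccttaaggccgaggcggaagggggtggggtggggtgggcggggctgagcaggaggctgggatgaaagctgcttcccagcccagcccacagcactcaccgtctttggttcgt
Rhd: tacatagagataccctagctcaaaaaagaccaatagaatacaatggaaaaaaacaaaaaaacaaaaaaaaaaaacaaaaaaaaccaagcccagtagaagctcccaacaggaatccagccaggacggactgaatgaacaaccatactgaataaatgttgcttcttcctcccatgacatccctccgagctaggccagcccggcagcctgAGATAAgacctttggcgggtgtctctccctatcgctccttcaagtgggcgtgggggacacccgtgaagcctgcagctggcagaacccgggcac
The match began 86 bases before the start site in Alas2, on the opposite strand, and 43 bases before it in Rhd. These letters, searched on both strands, were in 3672 of 32851 promoters of the same length (11.2%) and in 7 of 21 promoters found for 18 of the 27 red cell genes (33.3%), which include Rhd. In the haem synthesis and iron list, which includes Alas2, they were in 3 of 22 promoters (13.6%). A match describes the sequence and is not a measured binding site.

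Some regulators of red cell genes were also lower in every fatal library than in every doxycycline library, with doxycycline 2 the highest. Of 24 haematopoietic transcription factors with CPM, 5 lay below and 1 above every doxycycline library, beside 4.16 and 3.08% of all genes. Of 21 tested, 0 passed, and the median log2 fold change was -0.18. At an unadjusted p under 0.05, 3 were lower, beside 5.47% of all genes in either direction. Klf1, Zfpm1 and Nfe2 are named because they had the smallest p of that list. Klf1, an erythroid transcription factor, had 86.6, 104, 99.8 and 83.3 CPM in secondary disease, against 138, 359 and 141 CPM in doxycycline and 97.1, 113 and 110 CPM in controls. Zfpm1, the GATA1 partner FOG1, had 80.9, 79.2, 72.0 and 53.6 CPM in secondary disease, against 95.1, 757 and 96.2 CPM in doxycycline and 62.3 to 65.9 CPM in controls. Nfe2, a transcription factor of red cells and platelets, had 162, 186, 173 and 219 CPM in secondary disease, against 258, 402 and 237 CPM in doxycycline. All 3 had no overlap between secondary disease and doxycycline, and all had an adjusted p of 0.887. The erythropoietin receptor gene Epor had 85.9 to 91.1 CPM in secondary disease, against 128, 282 and 95.5 CPM in doxycycline and 85.6 to 100.2 CPM in controls.

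Single red cell genes differed from control in fatal disease. Hbb-bt, the other adult beta globin gene, had 188, 349, 469 and 129 CPM in secondary disease, against 30.8, 5953 and 3453 CPM in doxycycline and 36.8 to 63.6 CPM in controls. Every secondary disease library was above every control. Hbb-bt rose relative to control (log2 fold change 2.46 ± 0.48, adjusted p = 0.0486). Against control, 2 of 25 red cell genes were called higher and 2 lower, beside 1.10% of all genes called higher and 1.97% called lower. In secondary disease 1 to 3 alone, 11 were called higher and 5 lower, beside 12.4 and 13.5% of all genes.

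Many genes of the interferon response fell in fatal disease relative to spleen control, and against spleen doxycycline none passed the test. Interferons act through STAT and IRF factors to switch on antiviral and antigen presentation genes. Of 40 interferon response genes tested against spleen doxycycline, 0 passed. At an unadjusted p under 0.05, 20 were lower, beside 5.47% of all genes in either direction. The median log2 fold change of the 40 was -1.30 (-1.27 without secondary disease 4, -0.88 without doxycycline 2 and -0.61 with library quality weights). Every secondary disease library lay below every doxycycline library for 13 of 47 members with CPM, and above for 0, beside 4.16 and 3.08% of all genes. The 16-library model called 11 lower and 0 higher, beside 0.928% of all genes called. Against spleen control, 24 of 44 members fell and 0 rose, with a median of -1.87, beside 1.97% of all genes called lower. When secondary disease 4 was left out, 40 were called lower against control, beside 13.5% of all genes.

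Single libraries showed how the doxycycline group was spread. The median log2 difference of the interferon genes from the control mean was -1.59, -1.91, -2.13 and -2.31 in secondary disease 1 to 4, against -1.04, -0.06 and -1.67 in doxycycline 1 to 3. Doxycycline 3 was within the range of secondary disease and doxycycline 2 was near control.

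Isg15, a ubiquitin-like protein induced by interferon, had 6.91, 10.2, 11 and 12.6 CPM in secondary disease, against 41.4, 210 and 33.1 CPM in doxycycline and 66.6, 88.9 and 70.7 CPM in controls. Its log2 fold change was -3.18 ± 0.65 against doxycycline (adjusted p = 0.859) and -2.88 ± 0.22 against control (adjusted p = 0.00164). It fell relative to control and did not pass the test against doxycycline. Irf7, the transcription factor that amplifies interferon production, had 9.32, 10.9, 9.88 and 14.8 CPM in secondary disease, against 67.0, 130 and 17.2 CPM in doxycycline and 103, 116 and 121 CPM in controls. Doxycycline 3 was the closest to secondary disease. Irf7 fell relative to control by 3.33 ± 0.19 on the log2 scale (adjusted p = 0.000528). Usp18, which removes Isg15 from proteins and restrains interferon signalling, had 1.28, 2.27, 2.58 and 1.13 CPM in secondary disease, against 17.3, 37.1 and 4.94 CPM in doxycycline and 41.7, 45 and 47.0 CPM in controls. It fell relative to control (log2 fold change -4.59 ± 0.31, adjusted p = 0.00104).

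Igtp, an interferon-inducible GTPase, had 19.7, 26.7, 23.7 and 22.1 CPM in secondary disease, against 56.8, 187 and 57.2 CPM in doxycycline and 75.9, 85.3 and 76.8 CPM in controls. The groups did not overlap. Its log2 fold change was -2.09 ± 0.44 against doxycycline (adjusted p = 0.859) and -1.77 ± 0.12 against control (adjusted p = 0.00104). Socs1, a feedback inhibitor of cytokine signalling, had 8.86, 8.99, 7.30 and 8.41 CPM in secondary disease, against 16.4, 3.63 and 6.16 CPM in doxycycline and 33.2 to 34.8 CPM in controls. Doxycycline 2 and 3 were lower than secondary disease here, and Socs1 fell relative to control (log2 fold change -2.01 ± 0.12, adjusted p = 0.000624).

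The antigen presentation genes fell relative to control for 6 of 14 members and rose for 0, with a median of -0.77, beside 1.97 and 1.10% of all genes. Without secondary disease 4, 12 were called lower, beside 13.5% of all genes. Against spleen doxycycline 0 of 13 passed and the median was -0.19. This median depended on single libraries, and was 0.44 without doxycycline 1. B2m, the light chain of MHC class I, had 142, 153, 137 and 117 CPM in secondary disease, against 255, 283 and 208 CPM in doxycycline and 288, 338 and 307 CPM in controls. All secondary disease libraries were below all 7-day spleen libraries. B2m fell relative to control (log2 fold change -1.17 ± 0.11, adjusted p = 0.00328) and had a log2 fold change of -0.82 ± 0.18 against doxycycline (adjusted p = 0.859). Tapbp, which loads peptides on MHC class I, had 143, 137, 140 and 86.7 CPM in secondary disease, against 287, 200 and 85.5 CPM in doxycycline and 312 to 317 CPM in controls.

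The promoters of Isg15 and B2m are shown because both genes were below every 7-day spleen library. Isg15 is at chr4:156200769-156201068 on the minus strand and B2m at chr2:122147437-122147736 on the plus strand (RefSeq, GRCm38.p6, 250 bases before to 50 after the start site, 5′ to 3′ on the strand of the gene). Capitals mark GAAA, any 2 bases and GAAA again (GAAA, NN, GAAA), the core letters of an interferon-stimulated response element.
Isg15: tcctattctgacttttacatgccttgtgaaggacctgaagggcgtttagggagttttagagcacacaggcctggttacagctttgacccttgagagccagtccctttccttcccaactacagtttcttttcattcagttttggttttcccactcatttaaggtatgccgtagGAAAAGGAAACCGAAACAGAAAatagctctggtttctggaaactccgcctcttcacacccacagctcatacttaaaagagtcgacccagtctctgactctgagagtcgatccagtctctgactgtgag
B2m: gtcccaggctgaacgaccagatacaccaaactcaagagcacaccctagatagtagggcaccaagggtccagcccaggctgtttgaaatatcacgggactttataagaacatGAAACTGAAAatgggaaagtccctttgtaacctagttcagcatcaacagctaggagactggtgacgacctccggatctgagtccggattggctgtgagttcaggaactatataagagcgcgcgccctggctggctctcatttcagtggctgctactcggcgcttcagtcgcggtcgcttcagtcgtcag
Isg15 held 3 overlapping matches, the first starting 78 bases before the start site, and B2m held 1, starting 139 bases before it. These letters, searched on both strands, were in 1131 of 32851 promoters (3.44%) and in 25 of 42 promoters found for 36 of the 48 interferon response genes (59.5%). In the red cell gene promoters they were in 1 of 21 (4.76%).

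Few integrated stress response genes were called against control. Of 25 members tested against spleen doxycycline, 0 passed. At an unadjusted p under 0.05, 1 was higher and 5 lower, beside 5.47% of all genes in either direction. The median log2 fold change of the 25 was -0.53 (-0.14 without doxycycline 2). Against control 0 of 23 rose and 1 fell, with a median of 0.02, beside 1.10 and 1.97% of all genes. Without secondary disease 4 the counts were 4 and 5, beside 12.4 and 13.5% of all genes. Ppp1r15a, the phosphatase subunit GADD34 that restores translation after stress, had 85.1, 97.9, 102 and 109 CPM in secondary disease, against 206, 243 and 148 CPM in doxycycline and 66.2, 78.6 and 75.8 CPM in controls. Secondary disease lay between the other groups without overlap. Its log2 fold change was -0.97 ± 0.22 (adjusted p = 0.859). Sesn2, a stress-induced regulator of mTORC1, had 25.5, 31.0, 35.3 and 20.4 CPM in secondary disease, against 47.0, 108 and 51.9 CPM in doxycycline and 53.1 to 56.3 CPM in controls. Trib3, a pseudokinase induced by ATF4, had 6.04 to 9.97 CPM in secondary disease, against 6.94, 45.5 and 15.1 CPM in doxycycline and 4.25 to 4.81 CPM in controls.

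Of 23 p53 targets tested, 0 passed against spleen doxycycline, with a median log2 fold change of -0.24. At an unadjusted p under 0.05, 6 were lower, beside 5.47% of all genes in either direction. Against control 4 of 24 fell and 1 rose, beside 1.97 and 1.10% of all genes. In secondary disease 1 to 3 alone, 12 were called lower and 2 higher, beside 13.5 and 12.4% of all genes. Cdkn1a, the cell cycle inhibitor p21, had 45.5, 91.8, 81.0 and 54.0 CPM in secondary disease, against 187, 136 and 132 CPM in doxycycline and 213, 237 and 237 CPM in controls. Both 7-day groups were above all fatal libraries. Cdkn1a fell relative to control (log2 fold change -1.74, adjusted p = 0.0143) and had a log2 fold change of -1.12 ± 0.29 against doxycycline (adjusted p = 0.887). Trp53inp1, a p53 target that promotes cell death, had 7.72 to 27.9 CPM in secondary disease, against 31.9, 40.7 and 76.7 CPM in doxycycline and 47.8 to 53.5 CPM in controls.

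No member of the growth lists passed between secondary disease and spleen doxycycline. The median log2 fold change was -0.24 for 25 DNA replication genes, -0.26 for 25 mitosis genes, -0.08 for 41 cytosolic ribosomal protein genes and -0.06 for 30 nuclear respiratory chain genes. These medians were, without secondary disease 4, -0.11, -0.11, -0.33 and -0.29 in the same order. Then 9 of 41 ribosomal protein genes and 12 of 30 respiratory chain genes lay below every doxycycline library, beside 9.90% of all genes. With all 4 fatal libraries, the median was 0.33 for 23 cholesterol synthesis genes. Of these, 3 were higher at an unadjusted p under 0.05, beside 5.47% of all genes in either direction. Hmgcs1, an early enzyme of that pathway, had 64.7 to 89.9 CPM in secondary disease, against 50.6, 22.5 and 45.4 CPM in doxycycline and 49.2 to 56.3 CPM in controls. Mki67, a marker of dividing cells, had 1308, 1115, 1240 and 499 CPM in secondary disease, against 876, 2567 and 1176 CPM in doxycycline. These groups overlapped.

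The genes with the smallest p and no overlap of groups, chosen by rule as none had passed, included 4 that were higher in every fatal library. Pkn3, a protein kinase of the PKN family on chromosome 2, had 86.5, 75.7, 72.7 and 82.2 CPM in secondary disease, against 32.3, 15.2 and 35.2 CPM in doxycycline and 15.5, 15.0 and 17.2 CPM in controls. Its log2 fold change was 1.56 ± 0.30 against doxycycline (adjusted p = 0.859) and 2.33 ± 0.12 against control (adjusted p = 0.00023), so that it rose in the second comparison. Shtn1, which encodes the axon growth protein shootin, had 12.9, 8.99, 10.9 and 21.9 CPM in secondary disease, against 1.57, 0.518 and 2.49 CPM in doxycycline and 0.773 to 2.24 CPM in controls. Slc6a19, a transporter of neutral amino acids, had 36.3, 16.2, 15.5 and 5.20 CPM in secondary disease, against 0.963, 0.399 and 1.90 CPM in doxycycline and 0.616 to 0.816 CPM in controls. Both rose relative to control, by 3.20 ± 0.51 (adjusted p = 0.0228) and 4.71 ± 0.70 (adjusted p = 0.0177) on the log2 scale. Itpr1, a calcium release channel, had 77.9, 104, 103 and 166 CPM in secondary disease, against 48.8, 36.8 and 38.2 CPM in doxycycline and 85.1 to 91.1 CPM in controls.

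The other 4 were lower in every fatal library than in every doxycycline library, and each fell relative to control. Slc6a20a, a proline transporter, had 1.82, 1.21, 0.546 and 0.520 CPM in secondary disease, against 14.1, 32.1 and 8.97 CPM in doxycycline and 5.10 to 7.30 CPM in controls. Its log2 fold change was -4.11 ± 0.65 against doxycycline (adjusted p = 0.859) and -2.56 against control (adjusted p = 0.0491). Rec8, a cohesin subunit of meiosis, had 5.80, 6.17, 5.35 and 4.86 CPM in secondary disease, against 23.2, 29.4 and 12.6 CPM in doxycycline and 16.3 to 19.2 CPM in controls. Fam214b had 25.3 to 36.9 CPM in secondary disease, against 66.1 to 182 CPM in doxycycline and 82.4 to 94.5 CPM in controls. Emilin2, an extracellular matrix glycoprotein, had 15.9 to 22.4 CPM in secondary disease, against 32.0 to 54.1 CPM in doxycycline and 41.6 to 47.3 CPM in controls. Relative to control the log2 fold changes were -1.67 (adjusted p = 0.00309) for Rec8, -1.41 (adjusted p = 0.00445) for Fam214b and -1.20 (adjusted p = 0.00517) for Emilin2.

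Cbfb, Runx1, Runx2, Runx3 and Runx1t1 were tested as a list, and of these 5 genes 0 passed against spleen doxycycline. The median log2 fold change was 0.60, which was the value of Runx1t1, itself not a core binding factor gene. When secondary disease 4 was left out, the median was 0.74, and 4 of 5 genes lay above every doxycycline library, beside 9.14% of all genes. Cbfb, the normal partner in the fusion, had 137, 133, 127 and 72.2 CPM in secondary disease, against 118, 54.2 and 119 CPM in doxycycline and 124 to 144 CPM in controls. Runx1, which encodes its DNA-binding partner, had 173, 170, 171 and 99.4 CPM in secondary disease, against 243, 92.5 and 101 CPM in doxycycline and 220 to 259 CPM in controls. Secondary disease 4 and doxycycline 2 were low for both, and doxycycline 3 was as low for Runx1. Runx3, a related RUNX gene, had 31.4, 40.1, 42.4 and 30.1 CPM in secondary disease, against 29.4, 0.917 and 21.7 CPM in doxycycline and 8.66 to 10.1 CPM in controls. Runx3 rose relative to control (log2 fold change 1.98 ± 0.17, adjusted p = 0.00187). The stem cell factor receptor gene Kit had 137, 163, 166 and 54.1 CPM in secondary disease, against 103, 189 and 144 CPM in doxycycline and 62.8 to 78.9 CPM in controls. Tek, the angiopoietin receptor, had 99.6, 115, 112 and 30.5 CPM in secondary disease, against 106, 1.16 and 73.4 CPM in doxycycline and 93.9 to 103 CPM in controls. The log2 fold changes of Cbfb (0.30 ± 0.34), Runx1 (0.11 ± 0.38), Kit (-0.13 ± 0.39) and Tek (0.59 ± 1.08) against doxycycline were smaller than their standard errors. Il6st, the shared receptor chain gp130, had 26.9 to 32.7 CPM in secondary disease, against 7.77, 4.11 and 13.6 CPM in doxycycline and 18.3 to 21.3 CPM in controls.

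Genes that changed with doxycycline in bone marrow at 7 days were then followed in the spleen groups. Their fold changes came from libraries that are in none of the spleen groups, although the 6 spleen libraries taken at 7 days entered the estimate of the spread. In bone marrow, 954 of 14140 genes (6.75%) rose and 590 (4.17%) fell with doxycycline. These counts were smaller without any 1 library, at 349, 257 and 326 in all without bone marrow doxycycline 1 to 3, and at 315, 157 and 426 without bone marrow control 1 to 3. Of 953 bone marrow higher genes with CPM, every secondary disease library lay below every spleen doxycycline library for 157 (16.5%) and above for 5 (0.525%), beside 4.16 and 3.08% of all genes. Of the 590 bone marrow lower genes, secondary disease lay above for 77 (13.1%) and below for 4 (0.678%). Without secondary disease 4 these shares were 32.7% below and 1.15% above for the higher genes, and 39.3% above and 2.03% below for the lower genes, beside 9.90 and 9.14% of all genes.

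Against spleen control, the same bone marrow genes were called in both directions. Among 880 bone marrow higher genes tested, 29 (3.3%) were higher and 21 (2.39%) lower in secondary disease, beside 1.10 and 1.97% of all genes. Among 585 bone marrow lower genes, 17 (2.91%) were higher and 12 (2.05%) lower. With secondary disease 1 to 3 only, the counts were 176 higher and 152 lower of 874, and 143 higher and 110 lower of 582, beside 12.4 and 13.5% of all genes. The median log2 difference of the bone marrow higher genes from spleen control was -0.02, 0.05, 0.00 and 0.03 in secondary disease 1 to 4, against 0.08, 0.87 and 0.45 in doxycycline 1 to 3. For the bone marrow lower genes it was 0.06, 0.03, 0.05 and -0.29 in secondary disease, against -0.01, -1.07 and -0.36 in doxycycline. The medians were away from 0 in doxycycline 2 and 3 and near 0 in doxycycline 1 and in secondary disease 1 to 3.

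A few bone marrow changes were called in the same direction in fatal disease against spleen control. Lmna, which encodes the nuclear lamins A and C, had 12.1, 38.7, 28.1 and 44.7 CPM in secondary disease, against 8.09, 232 and 86.6 CPM in doxycycline and 2.38 to 2.80 CPM in controls. It rose relative to control (log2 fold change 3.56, adjusted p = 0.0114). St3gal2, a sialyltransferase, had 2.48, 4.34, 5.78 and 11 CPM in secondary disease, against 0.642, 172 and 21.8 CPM in doxycycline and 0.387 to 0.528 CPM in controls, and rose relative to control (log2 fold change 3.63, adjusted p = 0.0273). Clec11a, a secreted growth factor for blood cells, had 2.94, 4.14, 3.75 and 11.3 CPM in secondary disease, against 72.2, 0.0399 and 1.58 CPM in doxycycline and 43.2 to 48.5 CPM in controls. Fcer1a, a chain of the IgE receptor of mast cells and basophils, had 2.94 to 5.90 CPM in secondary disease, against 6.55, 0 and 8.34 CPM in doxycycline and 18.2 to 23 CPM in controls. Both fell relative to control, with log2 fold changes of -3.06 (adjusted p = 0.0226) and -2.43 (adjusted p = 0.0072).

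Other genes that changed in bone marrow were not called in fatal disease against control. Sphk1, the kinase that makes sphingosine 1-phosphate, had 4.43, 5.55, 5.46 and 8.76 CPM in secondary disease, against 3.63, 238 and 39.3 CPM in doxycycline and 1.41 to 2.36 CPM in controls. Il4ra, the interleukin 4 receptor chain, had 13.6, 18.4, 18.3 and 9.28 CPM in secondary disease, against 18.4, 52.9 and 47.2 CPM in doxycycline and 13.9 to 15.3 CPM in controls. Capn2, a calpain protease, had 90.4 to 148 CPM in secondary disease, against 187, 0.718 and 63.3 CPM in doxycycline and 117 to 128 CPM in controls. For all 3 genes doxycycline 2 was the most extreme library, and for Sphk1 every fatal library was above every control.

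Changes of the spleen itself at 7 days were described mainly by values. This comparison shares the doxycycline libraries with the main comparison and the control libraries with the comparison against control. In the model of the 12 libraries taken at 7 days, 87 of 14140 genes (0.615%) rose and 53 (0.375%) fell in spleen doxycycline relative to control. This set of 140 genes rested on the spread estimate and on single libraries. The count was 1 in a model of the 6 libraries compared, 2, 2 and 3 without control 1, 2 and 3, and 3054, 620 and 442 without doxycycline 1, 2 and 3. A change was termed kept where the mean difference of secondary disease from control was at least 0.5 of that of doxycycline, reduced where it was between 0 and 0.5, and opposite where it had the other sign. These terms describe the ratio only, since both differences use the control libraries that also entered the choice of genes. The p-values of secondary disease against control given below for these genes share those libraries too, so they are no independent support.

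Of the 87 genes higher at 7 days, 47 were kept, 37 reduced and 3 opposite in secondary disease, and without secondary disease 4 the counts were 40, 43 and 4. Of the 53 genes lower at 7 days, 35 were kept, 14 reduced and 4 opposite, and without secondary disease 4 they were 23, 24 and 6. Taken singly, secondary disease 1 to 4 kept 42.9, 48.6, 48.6 and 67.9% of the 140 genes. Secondary disease 4 had the highest share, and the class of the lower genes depended most on it. The bone marrow control libraries, which were given no doxycycline, gave similar counts when put in the place of secondary disease. Of the 87 higher genes 38 then counted as kept, 43 as reduced and 6 as opposite, and of the 53 lower genes 24, 23 and 6. Taken singly, bone marrow control 1 to 3 kept 47.1, 51.4 and 40% of the 140 genes. A kept share of the size seen in secondary disease 1 to 3 was therefore also found without doxycycline, and the counts do not show that knockdown changes were retained.

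Some genes of the kept class were further from control in fatal disease than at 7 days, and these were singled out after their values were seen. Calls against control here and in the next paragraphs use the control libraries that entered the choice of genes. Clstn3, a calcium-binding membrane protein, had 159, 174, 180 and 275 CPM in secondary disease, against 29.6, 72.5 and 103 CPM in doxycycline and 16.3, 14.1 and 19.1 CPM in controls. The 3 groups did not overlap. Clstn3 rose relative to control (log2 fold change 3.59 ± 0.26, adjusted p = 0.00134), and its log2 fold change against doxycycline was 1.57 ± 0.43 (adjusted p = 0.887). Dis3l, an RNA exosome nuclease, had 6.25, 10.5, 9.92 and 10.1 CPM in secondary disease, against 1.77, 3.07 and 4.62 CPM in doxycycline and 0.301 to 0.748 CPM in controls. Wwc2, a regulator of the Hippo pathway, had 25.3, 16.8, 16.6 and 25.8 CPM in secondary disease, against 5.43, 5.82 and 9.74 CPM in doxycycline and 1.25 to 2.51 CPM in controls. Both rose relative to control, by 4.34 (adjusted p = 0.00526) and 3.48 (adjusted p = 0.00383) on the log2 scale. Iqsec1, an activator of Arf GTPases, had 37.3, 29.4, 28.6 and 86.8 CPM in secondary disease, against 17.9, 20.2 and 25.2 CPM in doxycycline and 7.77 to 9.85 CPM in controls. The ratios of the differences were 1.89 for Clstn3, 1.61 for Dis3l, 1.87 for Wwc2 and 1.76 for Iqsec1.

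Other genes of the kept class differed in how even they were. Gfi1b, a transcriptional repressor of the red cell and platelet lineages, had 437, 524, 507 and 508 CPM in secondary disease, against 495, 491 and 486 CPM in doxycycline and 300.1, 311 and 313 CPM in controls. Its values were even within each group, and it rose relative to control (log2 fold change 0.69, adjusted p = 0.0171). Slc22a23, a member of the organic ion transporter family, had 69.0, 66.4, 75.9 and 34.4 CPM in secondary disease, against 6.39, 128 and 84.0 CPM in doxycycline and 4.34 to 5.43 CPM in controls. Dusp1, a phosphatase that switches off MAP kinases, had 12.2, 15.4, 19.9 and 32.3 CPM in secondary disease, against 20.5, 34.5 and 24.7 CPM in doxycycline and 4.00 to 5.03 CPM in controls. Both rose relative to control, with log2 fold changes of 3.65 (adjusted p = 0.00189) and 2.13 (adjusted p = 0.0323). Mppe1, a phosphoesterase that remodels membrane anchors, had 18 to 19.1 CPM in secondary disease, against 6.45, 53.1 and 30.8 CPM in doxycycline and 2.68 to 4.68 CPM in controls. Doxycycline 2 and 3 were above all fatal libraries for Mppe1, and doxycycline 1 was below them. Abhd5, an activator of fat breakdown, had 5.20 to 8.82 CPM in secondary disease, against 5.78, 23.2 and 30.2 CPM in doxycycline and 2.26 to 2.95 CPM in controls.

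In the kept class of lower genes, Usp40, a deubiquitinase, had 12.6, 15.2, 13.0 and 11 CPM in secondary disease, against 14.2, 10.2 and 10.9 CPM in doxycycline and 25.9, 30.8 and 26.1 CPM in controls. All 7 doxycycline-treated libraries were below all controls, and Usp40 fell in secondary disease relative to control (log2 fold change -1.08, adjusted p = 0.0105). Nfkbiz, an inducible NF-kB regulator, had 5.24 to 6.16 CPM in secondary disease, against 3.31 to 4.66 CPM in doxycycline and 10.3 to 11.1 CPM in controls. Vegfa, the vascular growth factor, had 18.6 to 24.8 CPM in secondary disease, against 15.5 to 24.9 CPM in doxycycline and 36.1 to 38.3 CPM in controls. Zfp185, an actin-associated LIM domain protein, had 18.3, 17.5, 17.7 and 8.85 CPM in secondary disease, against 18.2, 5.11 and 9.47 CPM in doxycycline and 37.6 to 43.2 CPM in controls. The log2 fold changes of secondary disease against control were -0.88 (adjusted p = 0.0451) for Nfkbiz, -0.84 (adjusted p = 0.0185) for Vegfa and -1.34 (adjusted p = 0.0374) for Zfp185. F2r, the thrombin receptor, was not called at 7 days (adjusted p = 0.0503) and had 10.4, 12.4, 9.80 and 10.1 CPM in secondary disease, against 38.3, 12.2 and 12.6 CPM in doxycycline and 76.8 to 81.3 CPM in controls. F2r fell in secondary disease relative to control by 2.87 ± 0.11 on the log2 scale (adjusted p = 8.74e-05).

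Genes of the reduced and opposite classes are given as examples, most of them chosen after their values were seen. Itpr1 fell at 7 days (log2 fold change -1.09, adjusted p = 0.0141) and in secondary disease was above every control in 3 of 4 libraries, as given above. Ddit3, the stress transcription factor CHOP, had 16.9, 22.0, 19.5 and 49.4 CPM in secondary disease, against 42.9, 51.5 and 39.1 CPM in doxycycline and 20.1 to 24.1 CPM in controls. Secondary disease 4 was the only fatal library at the doxycycline level. Bpgm, a red cell enzyme that makes 2,3-bisphosphoglycerate, had 39.4, 45.5, 51.6 and 56.5 CPM in secondary disease, against 46.1, 226 and 165 CPM in doxycycline and 30.4 to 32.7 CPM in controls. Tspo2, an erythroid cholesterol-binding protein, had 41.9 to 52.2 CPM in secondary disease, against 61.9, 173 and 113 CPM in doxycycline and 30.1 to 37.8 CPM in controls. All fatal libraries were above all controls for Bpgm and Tspo2, but neither was called against control (adjusted p = 0.0817 and 0.103). For Bpgm, doxycycline 1 lay within the range of secondary disease. Taldo1, an enzyme of the pentose phosphate pathway, had 228, 262, 240 and 303 CPM in secondary disease, against 372, 593 and 402 CPM in doxycycline and 251 to 277 CPM in controls. Scd2, a fatty acid desaturase, had 258, 237, 235 and 484 CPM in secondary disease, against 134, 157 and 163 CPM in doxycycline and 267 to 280 CPM in controls. Scd2 was of the opposite class only through secondary disease 4, and of the reduced class without it. Kcnq5, a potassium channel gene, had 10.1 to 26.7 CPM in secondary disease, against 1.72 to 4.26 CPM in doxycycline and 7.43 to 9.46 CPM in controls. The log2 differences of Kcnq5 from control were 0.63, 0.23, 0.36 and 1.63 in secondary disease 1 to 4.

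The comparison of secondary disease with spleen control, on which the calls above rest, was itself sensitive to single libraries. It called 145 of 13166 genes higher (1.10%) and 259 lower (1.97%), 404 in all. Without secondary disease 4 it called 3363 genes, 1611 higher (12.4%) and 1752 lower (13.5%). Without secondary disease 1, 2 or 3 it called 258, 218 and 193 genes, without control 1, 2 or 3 it called 122, 115 and 108, and in a model of the 10 spleen libraries it called 39. Of 35 genes examined in this comparison, 26 lost their call under at least 1 alternative, and the 9 that kept it were B2m, Clstn3, Dis3l, F2r, Irf7, Pkn3, Rec8, Usp18 and Wwc2.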

How the data were processed

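RNA of GFP-sorted cells was sequenced with the NEBNext Ultra II kit after oligo-dT enrichment, per the labels' protocols. The authors deposited a table of expected counts, which are estimates and can be fractions, and TPM values per library, which were not used here. Trim Galore, FastQC, MultiQC, STAR, RSEM and GRCm38 are listed in the submitters' processing notes. The sources used here give no strandedness, so overlapping antisense genes cannot be told apart.

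Expected counts were rounded and tested with edgeR 4.0.16 (R 4.3.3; filterByExpr, TMM, glmQLFit robust, glmQLFTest). P-values are two-sided and Benjamini-Hochberg adjusted over all genes tested; genes were called under 0.05. Standard errors were derived from the fold change and F. CPM are TMM-scaled over 16 libraries and 14435 genes, and log2 CPM used a prior count of 2. DESeq2 1.42.0 and limma 3.58.1 gave alternatives. Total counts of 12259707 to 39419370 set a floor of 3 counts at 0.0737 to 0.260 CPM in spleen libraries, for counting error only. Replicates differed beyond sampling noise (chi-square per degree of freedom of at least 7.868). Steps were tested on data simulated with the same spread in every library and no library apart. This does not show how the tests perform with the uneven spread of these groups.

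Named genes were up to 10 per direction with no overlap and an average log2 CPM of at least 3 (the 4 with the smallest p where fewer than 4 passed), up to 6 for each 7-day comparison, up to 4 members per list, and anchor genes. Bpgm, Clstn3, Ddit3, Dis3l, Fcer1a, Iqsec1, Kcnq5, Scd2, Taldo1, Tspo2, Vegfa and Wwc2 were added after their values were seen. The comparison and the 36 lists were chosen with earlier results of these data known. Some genes of the lists are not reported singly here.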

Additional observations from a re-analysis of the deposited data

Results flagged for a closer look

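Among 60 genes examined for a library apart from the others of its group, 7 had one in secondary disease, and in 6 of these it was secondary disease 4. Chance sets a library apart in about 1 in 20 separate groups of this kind. The genes share the same 4 libraries, and some were chosen after their values were seen. That rate is therefore no measure for the count of 7. In secondary disease 4, Fam214b had 25.33 CPM (36.03 to 36.93 in secondary disease 1 to 3), Cbfb 72.16 CPM (126.7 to 136.8), Runx1 99.4 CPM (169.6 to 172.7) and Tek 30.53 CPM (99.62 to 115.1). In the same library Slc22a23 had 34.43 CPM (66.43 to 75.89) and Zfp185 had 8.847 CPM (17.51 to 18.34). Dis3l was apart in secondary disease 1, at 6.252 CPM, against 9.916 to 10.47 CPM in the others. The 20 neural genes summed to 2745 CPM in secondary disease 4, against 6.955 to 7.701 CPM in the others.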

How the results depend on the processing

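For secondary disease against spleen doxycycline the count of 0 became 104 with DESeq2, 1 with limma-voom and library quality weights and 134 with all 16 libraries; without any 1 library it was 0. Without secondary disease 4 the count of 0 became 247 with DESeq2 and 711 with the 15 other libraries (alternatives chosen after seeing the data, as were the counts of 1319 and 1429 genes above and below every doxycycline library). For secondary disease against control the 404 calls became 202 with no filter on low counts, 1224 with DESeq2, 629 with limma-voom, 4518 with quality weights and 39 with 10 spleen libraries, and 108 to 3363 without 1 library. For spleen at 7 days the 140 calls became 1160 with DESeq2, 864 with quality weights and 1 with the groups compared only, and 2 to 3054 without 1 library. For bone marrow the 1544 calls became 963 with no filter, 2614 with DESeq2, 5857 with quality weights, 949 with all 16 libraries and 4929 with the groups compared only, and 157 to 426 without 1 library. The share of 7-day spleen changes kept was 58.6%, 85.7% at a ratio of 0.25 and 38.6% at 0.75. It was 45% without secondary disease 4, and 45 to 64.3% when this library or any 1 doxycycline library was left out. The 140 genes were held fixed for this, and no other library was left out. Bone marrow control libraries in place of secondary disease gave 44.3% (chosen after seeing the data). The cause of these differences was not tested.

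Same-numbered libraries did not deviate together (correlations of -0.266 to 0.136), so the replicate number does not pair them. With the replicate block the calls were 3961 against control, 1 for spleen and 3804 for bone marrow at 7 days, and 0 in the main comparison. Replicate number 4 occurs only in secondary disease, so its block term is fitted to that library alone. Block results for secondary disease therefore rest on the other secondary disease libraries and are no check of pairing alone. Without secondary disease 4 and without a block, 3363 genes were called against control.

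List medians with quality weights were -1.60 (red cell), -0.95 (haem), -0.61 (interferon), 0.27 (MHC class I), -0.38 (integrated stress) and -0.43 (p53). With limma-voom they were -1.78 (red cell) and 1.07 (stem and progenitor), with no filter -0.38 (integrated stress) and 1.21 (stem and progenitor), and with the block -1.78 (red cell), 0.077 (MHC class I), -0.42 (integrated stress) and 1.25 (stem and progenitor). Without 1 library they ran from -3.20 to -1.59 (red cell), -1.40 to -0.60 (haem), -1.50 to -0.88 (interferon), -0.47 to 0.44 (MHC class I), -0.72 to -0.14 (integrated stress), -0.37 to -0.20 (p53), 0.44 to 0.95 (stem and progenitor) and 0.18 to 0.38 (cholesterol). Direction turned for Runx1 without doxycycline 2 (-0.14) or 3 (-0.10; range -0.14 to 0.66), for Gata2 without doxycycline 1 (0.080; range -0.67 to 0.080), and for Kit with quality weights (0.18), the block (0.15), without doxycycline 2 (0.10) or without secondary disease 4 (0.11). For these lists and genes too, the block and leaving out secondary disease 4 are not separate checks.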

Other observations

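Members of a pair of other lists fell in fatal disease relative to spleen control. Of 20 unfolded protein response genes, 4 fell and 0 rose relative to control, with a median log2 fold change of -0.36, beside 1.97 and 1.10% of all genes. Without secondary disease 4, 12 were called lower, beside 13.5% of all genes. Against doxycycline 0 passed and the median was 0.02. Of 15 NF-kB subunits and feedback genes, 2 fell and 0 rose relative to control, beside 1.97 and 1.10% of all genes. Their median was -0.61. When secondary disease 4 was left out, 9 of them were called lower and 1 higher, beside 13.5 and 12.4% of all genes. Against doxycycline the median was 0.12. These comparisons share the secondary disease libraries, and whether they differ was not tested.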
